A study of Homo sapiens with 8 samples.

Results

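Ribosome-protected footprints were compared between HEK293T cells that lacked XRN1 and the wild-type (WT) cells from which they were made, and the genes with raised and lowered footprints were sorted by function. HEK293T is an established human embryonic kidney line that carries the SV40 large T antigen. The XRN1-null line was made with CRISPR/Cas9 and a guide RNA against an exon of XRN1, and whether it derives from a single clone is not given in the sources used here. The members are the 4 Ribo-Seq libraries of the series, 2 from WT and 2 from XRN1-null cells, out of 8 libraries in all. The other 4 are RNA-Seq libraries of the same 2 lines and serve here as a value beside each footprint change. Cells of both genotypes were plated a day before harvest and received no other treatment that the sources name.

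XRN1 is the main cytoplasmic 5′-to-3′ exoribonuclease. It degrades mRNAs once their cap has been removed, and also takes up the 3′ fragments that nonsense-mediated mRNA decay (NMD) leaves. Ribosome profiling sequences the short stretches of mRNA that ribosomes shield from nuclease, so a footprint count joins the amount of an mRNA with its occupancy by ribosomes and lies nearer to the rate of protein synthesis than an mRNA count does. A footprint count does not tell apart more mRNA from more ribosomes on each mRNA, and decay intermediates that are not translated add to mRNA counts without adding footprints. In bulk samples such as these, fewer cells with an mRNA and less of it per cell cannot be told apart.

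Over the 10105 genes of the table, total counts were 1921641 (WT replicate 1), 4399542 (WT replicate 2), 3971591 (XRN1-null replicate 1) and 3211307 (XRN1-null replicate 2). All 4 libraries had at least 10 counts for 9770 of these genes. Values below are CPM, counts scaled by library total and trimmed-mean factor, log2 fold changes of XRN1-null over WT with their standard errors, and false discovery rates (FDR) from edgeR's quasi-likelihood test adjusted over all 10105 genes. A gene was called at an FDR below 0.005, the threshold of the study, or at the wider 0.05, which is used for counts within functional lists. XRN1 itself, at chromosome 3, 142025449 to 142166904 (GRCh37), had 34.4 and 49.8 CPM in WT and 22.6 and 18.4 CPM in XRN1-null cells. Its footprints were lower in all 4 pairings of a WT with an XRN1-null library (log2 −1.08 ± 0.20, FDR 0.00641), whereas its mRNA was higher (log2 3.01, FDR 1.92e-06). Of 8 HEK293T markers, 7 were in the table. NEFL (log2 0.60, FDR 0.0219) and KRT18 (log2 0.56, FDR 0.0217) were called higher, and the other 5 lay between log2 −0.14 and 0.03 and were not called. The markers listed for blood, endothelial and liver cells were not in the table. Of the fibroblast list COL1A1 alone was present and was higher in the XRN1-null libraries, and of the muscle list 1 of 5 markers was present and was not called.

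Several features of the data cut across the functional lists and are given before them. WT replicate 1 stood apart from the other libraries, with 32.7% of its counts in the shortest of 5 equal groups of genes by coding length, up to 729 nt. That share was 28.8% in WT replicate 2 and 25.8% and 25.5% in the XRN1-null libraries. The group with the longest coding sequences, from 2439 nt, took 14.8% and 16.4% of WT counts and 18.4% and 18.5% of XRN1-null counts. Genes called higher at an FDR below 0.05 had a median coding length of 2277 nt and a median transcript GC content of 42.8%, and genes called lower had 933 nt and 56.4%, beside 1350 nt and 47.6% for all genes. The part of length and base composition in any list's change was not tested, and the median coding length of the members is given for several of the lists.

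**Figure D1:**
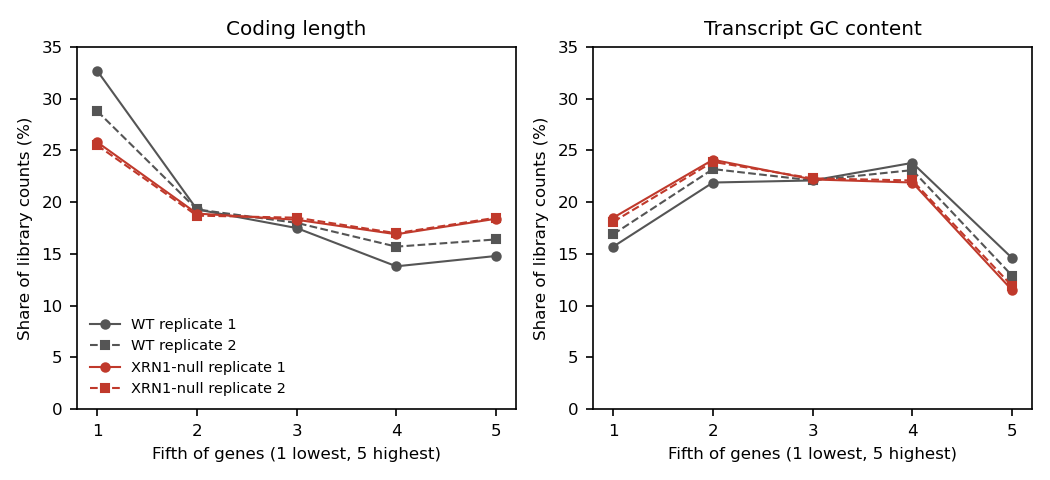
Share of each Ribo-Seq library's counts (percent, y axis) in 5 equal groups of genes ordered by coding length (left) or transcript GC content (right). WT replicate 1 holds 32.7% of its counts in the shortest group and both XRN1-null libraries less than 26%.

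The second feature is chromosome 16. Its 442 matched genes had a median footprint change of log2 −0.58, and 402 of them lay below 0, while the medians of the other chromosomes ran from −0.16 to 0.16. At an FDR below 0.05, 205 of its genes were called lower and 5 higher, so that 24.2% of all genes called lower lay on this chromosome. The median was −0.60 over the 240 genes of the short-arm side and −0.55 over the 202 genes of the long-arm side. Its mRNAs had a median of log2 −0.55. The share of all footprints from chromosome 16 was 3.56% and 3.45% in WT, against 2.41% and 2.44% in XRN1-null cells. This pattern was noticed after the values were seen. For any gene of the table, other differences between the edited line and WT cells cannot be told apart from the loss of XRN1. Copy number was not measured here, and for the genes of chromosome 16 the chromosome and the loss of XRN1 cannot be told apart. The genes called higher against this background were MAF, NQO1, NPIPB3, NPIPB4 and NPIPB5, of which MAF, a bZIP transcription factor, went from 35.4 and 38.4 to 58.4 and 59.0 CPM. Several functional lists are therefore also given without their members on chromosome 16, and the counts of the other lists include any such members. For comparison, 642 of the 9663 genes elsewhere (6.64%) were called lower and 709 (7.34%) higher with the adjustment over all genes, which the list counts use. With p-values adjusted over those genes alone the numbers were 588 (6.09%) and 650 (6.73%).

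**Figure D2:**
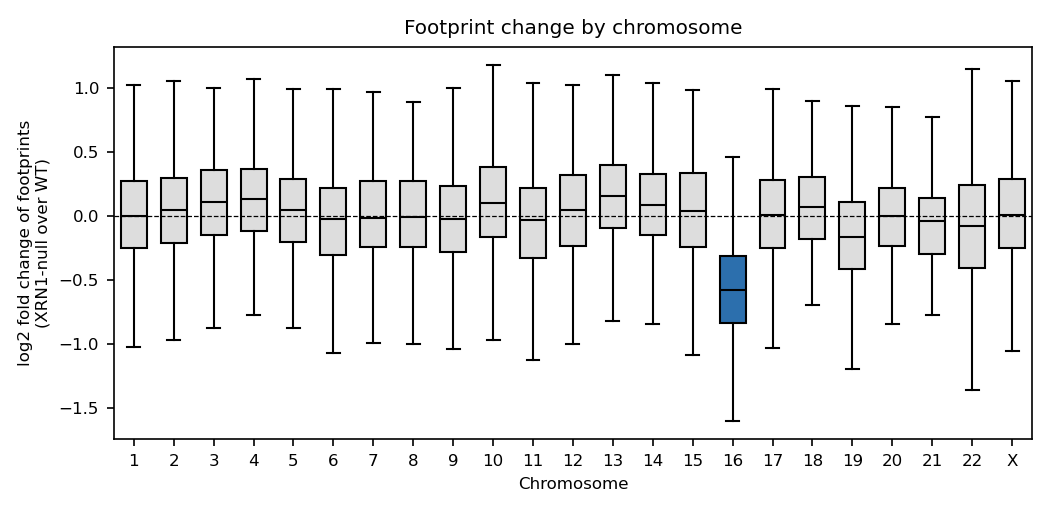
Log2 fold change of footprints (y axis, XRN1-null over WT) for the genes of each chromosome (x axis). Boxes span the quartiles, the line is the median and whiskers reach 1.5 times the box height, with points beyond them not drawn; chromosome 16 (blue, median −0.58) lies below all others.

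The third feature is the strength of the calls. At an FDR below 0.005, 64 genes (0.633%) had higher and 115 (1.14%) lower footprints in XRN1-null cells. At an FDR below 0.05 the numbers were 714 (7.07%) and 847 (8.38%). In all called genes both XRN1-null libraries lay on the same side of both WT libraries, as they did in 32.1% of all genes upward and 32.3% downward. In RNA-Seq, 2313 genes (22.9%) were called higher and 2344 (23.2%) lower at an FDR below 0.005. The mRNA was called in the same direction for 62 of the 64 genes with higher footprints and for 103 of the 115 with lower footprints. At the wider threshold these numbers were 519 of 714 and 702 of 847, and the median mRNA change was close to the median footprint change, at log2 0.70 beside 0.72 for raised genes and −0.63 beside −0.74 for lowered genes. The 53 functional lists held 301 of the raised (42.2%) and 305 of the lowered genes (36.0%), beside 3356 of all genes (33.2%). Calls within lists moved with the library left out, as those over all genes did. Without XRN1-null replicate 1, 2.72% of all genes were called higher and 2.78% lower at an FDR below 0.05, and without XRN1-null replicate 2 the shares were 2.83% and 3.32%. Without WT replicate 1 they were 11.9% and 12.6%, and without WT replicate 2 they were 19.6% and 17.8%.

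**Figure D3:**
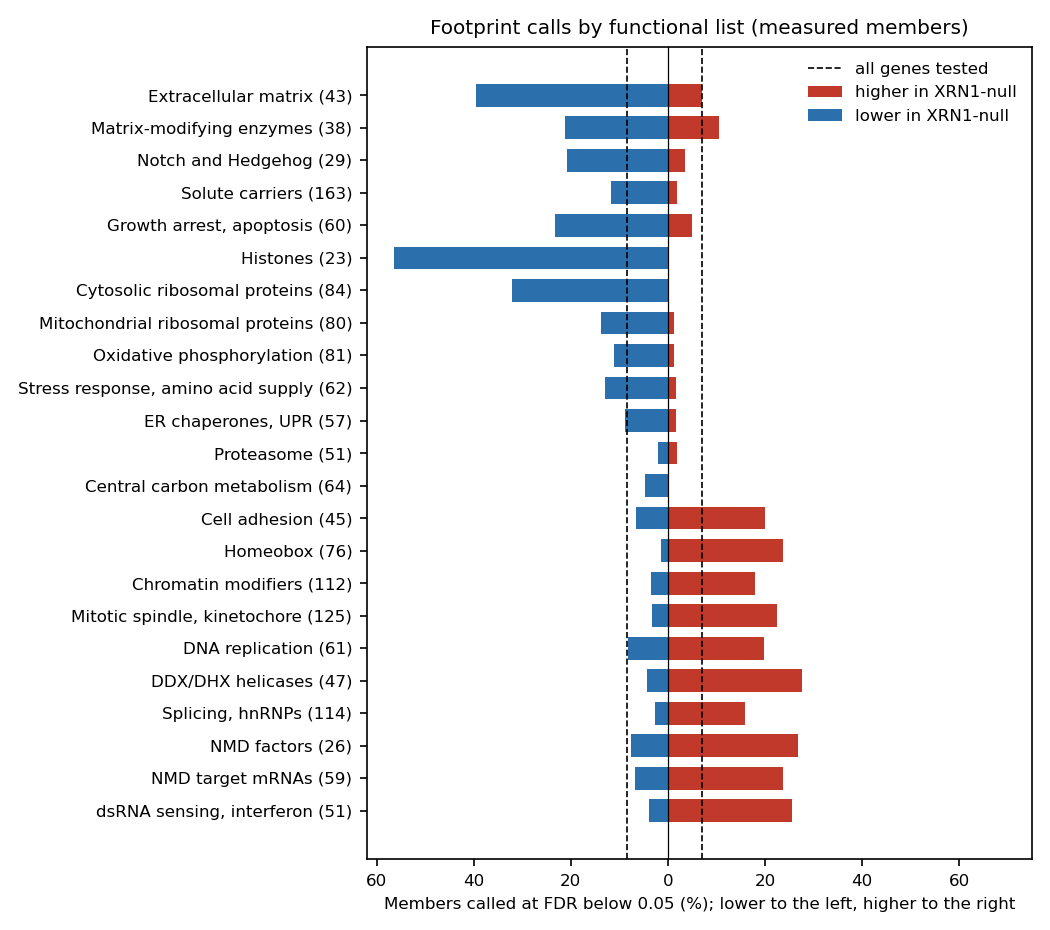
Percent of the measured members of 23 functional lists (number of members in parentheses) called at an FDR below 0.05, lower in XRN1-null cells to the left and higher to the right, with dashed lines at the percentages over all genes tested (8.38 and 7.07). Histones (56.5% lower) and extracellular matrix proteins (39.5% lower) reach farthest to the left and, among the 23 lists drawn of 53, DDX and DHX helicases (27.7% higher) to the right.

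Lowered footprints were frequent among genes for the extracellular matrix, the protein meshwork that cells secrete around themselves. Of 43 measured matrix genes, 17 were called lower (39.5%) and 3 higher (6.98%) at an FDR below 0.05, beside 8.38% and 7.07% of all genes. Their median was log2 −0.31, beside 0.00 over all genes. None of these lies on chromosome 16, and the members are long, with a median coding length of 4461 nt. The lowered members numbered 17 and 21 without WT replicate 1 or 2 and 11 and 10 without XRN1-null replicate 1 or 2. The largest fall among genes called at an FDR below 0.005 was in LAMA1, the α1 chain of laminin, a basement membrane protein, at chromosome 18, 6941741 to 7117796. LAMA1 had 76.0 and 68.0 CPM in WT and 2.23 and 3.43 CPM in XRN1-null cells (log2 −4.67 ± 0.23, FDR 1.37e-06), and its mRNA fell by 6.45 on the log2 scale. COL5A1, a fibrillar collagen chain, went from 17.2 and 22.1 to 5.71 and 5.62 CPM (log2 −1.83 ± 0.25, FDR 0.0022). Other basement membrane components were called lower as well, with NID2 at log2 −1.28, COL18A1 at −1.07, the proteoglycan AGRN at −1.02 and COL4A2 at −0.60. Against this direction, COL12A1, a collagen that decorates fibrils, showed the largest fitted rise among genes called at an FDR below 0.005, from 3.13 and 2.76 to 32.0 and 40.3 CPM (log2 3.63 ± 0.27, FDR 3.33e-05), at chromosome 6, 75794042 to 75915983. Its fold was 12.4, beside a pooled ratio of 12.8 for FGFBP1, which had few WT counts and is described below. COL1A1 (log2 1.18, FDR 0.00642) and the laminin chain LAMA4 (0.70, FDR 0.0116) were also higher.

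Enzymes and inhibitors that shape the matrix moved both ways, with 8 of 38 called lower and 4 higher. Without XRN1-null replicate 1 or 2, 2 and 3 were lower and 1 and 2 higher, and without WT replicate 2, 13 were lower. SULF1, which trims sulfate groups from heparan sulfate, fell from 27.1 and 32.8 to 8.94 and 4.68 CPM (log2 −2.12 ± 0.26, FDR 0.00121). HTRA1, a secreted serine protease, had a log2 change of −1.62 (FDR 0.00136) and TIMP1, an inhibitor of metalloproteinases, of −0.75 (FDR 0.00745). The raised members were the protease ADAMTS1 (0.92, FDR 0.00291), the plasminogen activator PLAT, and the collagen-modifying enzymes LOX and PLOD2. SPON1, a secreted matrix-associated protein that belongs to neither list, fell from 46.9 and 33.5 to 6.21 and 6.87 CPM (log2 −2.57 ± 0.24, FDR 0.000125).

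Among transcription factors of epithelial-mesenchymal transition, SNAI2 (chromosome 8, 49830157 to 49834299) fell from 20.3 and 20.2 to 0.993 and 1.25 CPM (log2 −4.15 ± 0.34, FDR 4.67e-05), the second largest fall among genes called at an FDR below 0.005. SNAI2 encodes Slug, a repressor of epithelial genes. In the list of 16 factors and markers of this transition, 7 were called higher and 2 lower, beside 7.07% and 8.38% of all genes. The number called higher was 0 without XRN1-null replicate 1 and 1 without XRN1-null replicate 2. The raised members included the junction proteins OCLN (log2 0.65, FDR 0.011) and TJP1 (0.65, FDR 0.0124), which mark epithelial cells, but also the neural adhesion molecule NCAM1 (0.74, FDR 0.00653) and the transcription factor TCF4 (0.90, FDR 0.00887). SPARC, a matrix glycoprotein, was the other lowered member (−0.78, FDR 0.0118).

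Notch carries signals between neighbouring cells and Hedgehog is a secreted patterning signal. In a joint list of 29 genes of both pathways, 6 were called lower (20.7%, beside 8.38% of all genes) and 1 higher, with a median of log2 −0.20. Without XRN1-null replicate 1 or 2, 4 were lower. The receptors NOTCH1 and NOTCH3 went from 48.4 and 48.2 to 23.6 and 28.7 CPM (log2 −0.89, FDR 0.00599) and from 39.1 and 38.1 to 17.9 and 19.4 CPM (log2 −1.05, FDR 0.00353). The ligand JAG2 changed by −0.61 (FDR 0.0223). The Notch target HES4 fell from 57.3 and 41.6 to 16.9 and 16.5 CPM (log2 −1.51 ± 0.20, FDR 0.0016) and the feedback inhibitor NRARP from 14.6 and 8.50 to 3.72 and 2.50 CPM (−1.73 ± 0.39, FDR 0.0139). HES1, another classical target, moved the other way (log2 0.55, FDR 0.0384). In the lists of WNT, of TGF-β and BMP, and of growth factor genes, the lowered members numbered 4 of 41, 2 of 38 and 5 of 36, which are shares of 9.76%, 5.26% and 13.9%.

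Genes of growth arrest and apoptosis had a median near 0, but several members fell. Of 60 p53 target and apoptosis genes, 14 were called lower (23.3%) and 3 higher (5%), beside 8.38% and 7.07% of all genes. Above 0 lay 30 members and below it 30, with a median of log2 −0.01. Their summed share was 3370 and 3350 CPM in WT, against 3140 and 3270 in XRN1-null cells. Without XRN1-null replicate 1 or 2, 4 and 6 were lower. CDKN1A, the cyclin-dependent kinase inhibitor p21, fell from 42.2 and 37.7 to 14.2 and 14.7 CPM (log2 −1.45 ± 0.18, FDR 0.00121). GADD45A, a growth arrest gene, fell from 25 and 28.5 to 12.7 and 9.05 CPM (−1.30 ± 0.22, FDR 0.00429). BAX (−0.69, FDR 0.0208), PERP (−0.77, FDR 0.00829) and the death receptor TNFRSF10B were also lower, as was TNFRSF10D, a decoy receptor for the same ligand that does not signal death. None of the 14 lies on chromosome 16. Among cyclins and their kinases, 8 of 74 were lower and 9 higher, or 5 and 4 without XRN1-null replicate 1, 5 and 3 without XRN1-null replicate 2, and 15 and 20 without WT replicate 2. In the full comparison the shares of cyclins and their kinases were 10.8% lower and 12.2% higher, beside 8.38% and 7.07% of all genes. Without chromosome 16, 6 of 69 were lower. CCND1, cyclin D1, which drives entry into S phase, fell from 22.4 and 26.2 to 6.70 and 6.87 CPM (−1.86 ± 0.23, FDR 0.00121), so the lowered genes were not restricted to inhibitors.

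**Figure D4:**
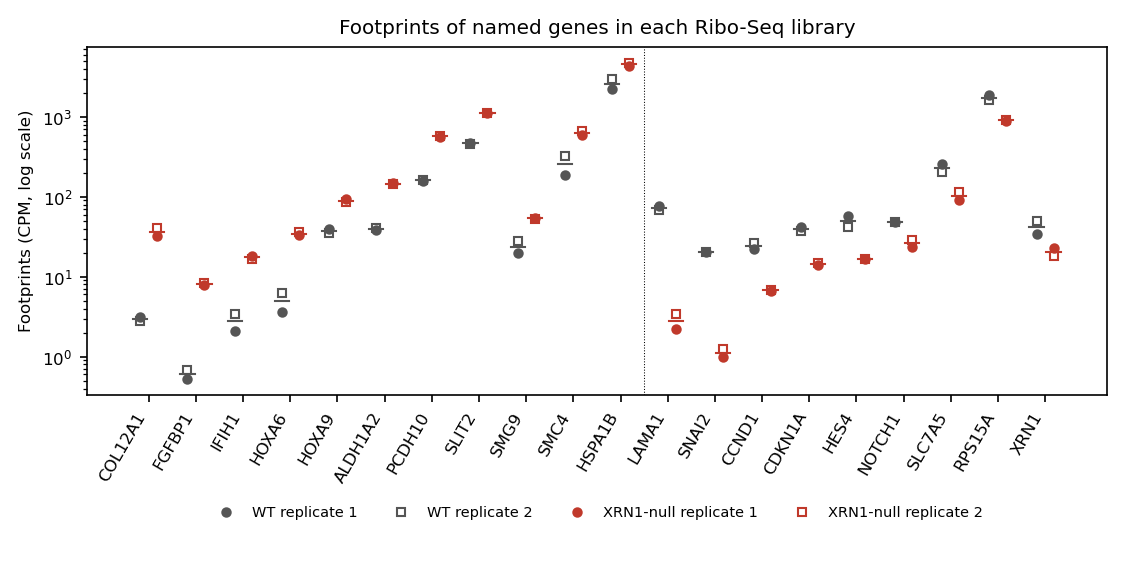
Footprints (CPM, log y axis) of 20 named genes in the 2 WT (grey) and 2 XRN1-null (red) Ribo-Seq libraries, with circles for replicate 1, squares for replicate 2 and a bar at the mean. Left of the dotted line the XRN1-null libraries lie above both WT libraries and right of it below them, from COL12A1 (log2 3.63) to LAMA1 (log2 −4.67).

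The most abundant lowered footprints belonged to ribosomal proteins and histones, whose mRNAs are short. Of 84 cytosolic ribosomal protein genes, 78 had a log2 change below 0, 27 were called lower (32.1%, beside 8.38% of all genes) and 0 higher, with a median of −0.34. Together they took 127000 and 115000 CPM of the library totals in WT, against 99700 and 102000 in XRN1-null cells, and the groups did not overlap. Their mRNAs were called lower for 79 of the 84, with a median of log2 −0.52. Among genes called at an FDR below 0.05, RPS15A had the largest fall in CPM, from 1850 and 1610 to 884 and 922 CPM (log2 −0.94 ± 0.13, FDR 0.00183), and RPL13 followed with 2000 and 1630 against 952 and 1030 CPM (−0.87 ± 0.13, FDR 0.00323). Both lie on chromosome 16, RPS15A at 18792617 to 18801705, and without that chromosome 24 of 81 members were lower, with a median of −0.32. RPLP1 (−0.78, FDR 0.00469), RPS19 (−0.75, FDR 0.0049) and RPS28 (−0.83, FDR 0.005) are on other chromosomes. The median coding length of the list is 453 nt. With offsets fitted to GC content and coding length in each library, 8 of 84 were called lower and the median was −0.04, when 7.5% of all genes were called lower. Without WT replicate 1 or 2, 48 and 61 of 84 were lower, with medians of −0.24 and −0.42, and without XRN1-null replicate 1 or 2, 3 and 4 were lower, with medians of −0.30 and −0.35.

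Ribosomal protein mRNAs begin with a cytidine and a run of pyrimidines, the 5′ terminal oligopyrimidine (TOP) motif, through which growth signals control their translation. The start regions of the strongest members were read from RefSeq (GRCh38.p14) to show this shared feature, as windows of 30 bases from 10 before to 20 from the annotated start. Capitals mark a C followed by at least 4 pyrimidines, all on the plus strand.
RPLP1 (chr15:69452808-69452837): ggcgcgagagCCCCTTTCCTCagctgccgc
RPS19 (chr19:41860245-41860274): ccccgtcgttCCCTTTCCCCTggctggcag
RPS28 (chr19:8321486-8321515): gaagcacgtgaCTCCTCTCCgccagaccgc
RPL13 (chr16:89560672-89560701): gggccgCTTCCTTTCCgctcggctgttttc
In RPLP1 and in the RPS19 window shown the run starts at the annotated start, in RPS28 a base after it and in RPL13 4 bases before it, at the second of its 3 annotated starts, of which the other 2 hold no such run in their windows. RPS19 has another annotated start downstream, whose window holds a run that begins 6 bases before it. No entry was found for RPS15A. Such a run occurred in the window of 61 of 68 ribosomal protein genes with an entry (89.7%), in 21 of the 22 that were called lower and in 40 of the 46 that were not, beside 45.7% of the genes of the count table with an entry. The motif search covered the sense strand only, and a match describes the letters of the window. Among elongation and release factors and other mRNAs of the TOP class, 2 of 27 were called lower (EIF5A, log2 −0.56, and EEF1B2, −0.39) and 1 higher (EIF4B, 0.56), with a median of −0.02. Their calls moved with the library left out, and their median was −0.08 without WT replicate 1 and 0.10 without WT replicate 2. With the offsets for GC content and coding length their median was 0.02, beside −0.04 for ribosomal proteins, and the difference between the lists was not tested.

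Of 23 histone genes, 13 were called lower (56.5%, beside 8.38% of all genes) and 0 higher, with a median of log2 −0.43. None was called without XRN1-null replicate 1 or without XRN1-null replicate 2, with medians of −0.43 and −0.42. Their summed share was 27800 and 25300 CPM in WT, against 20000 and 19700 in XRN1-null cells. HIST1H1C, a linker histone, went from 2900 and 2790 to 2080 and 2010 CPM (log2 −0.48 ± 0.11, FDR 0.017) and HIST2H2BE from 2590 and 2280 to 1660 and 1730 CPM (−0.52 ± 0.12, FDR 0.0153). H2AFX, the variant phosphorylated at DNA breaks, fell from 713 and 604 to 389 and 390 CPM (−0.76 ± 0.14, FDR 0.00595). None of the 23 lies on chromosome 16. Histone copies are nearly identical in sequence, so the split of reads among them is uncertain. Their median coding length is 390 nt, and with the offsets for GC content and coding length 1 was called lower and 1 higher, with a median of −0.05. The mRNA of 7 of the 23 was called lower. RNA-Seq counts in WT were low beside footprint counts, at 332 and 301 beside 5571 and 12154 for HIST1H1C. For HIST2H2BE they were 174 and 106 beside 4963 and 9916. The paper states that RNA without a poly(A) tail escapes its RNA-Seq, so these calls may not show whether histone mRNAs changed.

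Other groups of short coding sequences had smaller medians. Mitochondrial ribosomal proteins, with a median coding length of 591 nt, had 11 of 80 called lower (13.8%) and 1 higher (median log2 −0.10), and nuclear-encoded subunits of oxidative phosphorylation with a median coding length of 423 nt had 9 of 81 lower (11.1%) and 1 higher (median −0.19), beside 8.38% of all genes lower. Without chromosome 16, 10 of 78 mitochondrial ribosomal proteins and 7 of 78 oxidative phosphorylation subunits were lower, beside 6.64% of all genes elsewhere. MRPL34 (−1.12, FDR 0.0031) was the strongest of the first group, and NDUFB10 (−0.82, FDR 0.00447) and COX4I1 (−0.74, FDR 0.00642), both on chromosome 16, of the second. With the offsets for GC content and coding length both medians turned positive, at 0.04. Without XRN1-null replicate 1 or 2, the lowered members numbered 1 and 2 for mitochondrial ribosomal proteins and 0 and 1 for oxidative phosphorylation. Without WT replicate 1 or 2 they numbered 18 and 27, and 20 and 41. The proteasome had 1 of 51 called in each direction and a median of −0.01, and the enzymes of central carbon metabolism had 3 of 64 lower, 0 higher and a median of 0.09. Calls in both lists were far more frequent without WT replicate 2, as over all genes, with medians of 0.07 and 0.28. They stayed few without either XRN1-null library. The aminoacyl-tRNA synthetases had 1 of 42 higher and 2 lower, or 12 and 6 without WT replicate 2.

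Solute carriers, chosen by their SLC gene names and mostly membrane transporters, were called lower in 19 of 163 cases (11.7%, beside 8.38% of all genes) and higher in 3, with a median of log2 −0.18. Without XRN1-null replicate 1 or 2, 4 and 6 were lower, and without WT replicate 2, 43. SLC7A5, the light chain of the large neutral amino acid transporter, fell from 256 and 206 to 89.9 and 115 CPM (log2 −1.17 ± 0.17, FDR 0.0026) and lies on chromosome 16. The glutamine carrier SLC1A5 went from 633 and 622 to 387 and 405 CPM (−0.66 ± 0.13, FDR 0.00725), on chromosome 19. Of 62 effectors of the integrated stress response and amino acid supply genes, 8 were lower (12.9%) and 1 higher, or 6 and 1 of 59 without chromosome 16. Calls in both directions moved with the library left out. The median of this list was log2 −0.07, and −0.11 and 0 without WT replicate 1 or 2. Without XRN1-null replicate 1 or 2 it was −0.08 and −0.05. ATF4, the transcription factor at the centre of that response, had a log2 change of −0.01 (FDR 0.959) and its target ASNS of 0.07 (FDR 0.79). Chaperones of the endoplasmic reticulum had 5 of 57 lower (8.77%, beside 8.38% of all genes), with MANF at −0.68 and PDIA4 at −0.51, and a median of −0.21. Without WT replicate 1 or 2, 20 and 23 were lower, without XRN1-null replicate 1 or 2, 1 and 2, and with the offsets for GC content and coding length, 12.

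Raised footprints were frequent among homeobox genes, which encode transcription factors that pattern the body axis. Of 76 measured, 18 were called higher and 1 lower, with a median of log2 0.22, and 9 and 8 were higher without XRN1-null replicate 1 or 2. In the HOXA cluster, singled out after its values were seen, 8 of 9 measured genes were called higher and all 9 lay above 0, with a median of 1.09, and 5 and 6 were higher without XRN1-null replicate 1 or 2. HOXA6 (chromosome 7, 27185015 to 27190222) rose from 3.65 and 6.2 to 32.8 and 36.2 CPM (log2 2.67 ± 0.24, FDR 0.000114) and HOXA9 from 40.1 and 34.9 to 93.1 and 84.9 CPM (1.27 ± 0.15, FDR 0.00114). HOXA3 (1.65, FDR 0.0102), HOXA13 (1.11, FDR 0.0031) and HOXA5 (1.09, FDR 0.00296) lay between them or just below, and HOXA10 had the smallest called change (0.54, FDR 0.025). HOXA7 was at 0.86 (FDR 0.132). The annotated spans of HOXA3, HOXA5, HOXA6, HOXA9 and HOXA10 overlap other genes on the same strand, with HOXA5 and HOXA6 inside that of HOXA3, so these genes may share reads and their values may not be independent. Of 19 genes of the other HOX clusters, 3 were called higher, namely HOXB5 (1.17, FDR 0.00454), HOXD11 (0.74, FDR 0.011) and HOXD13 (0.53, FDR 0.0319). The HOX partner genes MEIS1, MEIS2 and PBX3 were raised as well, at 0.99, 0.72 and 1.13. Homeobox genes are short, with a median of 1021.5 nt and 52.4% GC, and the count with the offsets for GC content and coding length was 18 higher and 2 lower, when 7.12% and 7.5% of all genes were called. The lowered member was NKX2-5 (−1.19, FDR 0.0086). In the full comparison the homeobox shares were 23.7% higher and 1.32% lower, beside 7.07% and 8.38% of all genes.

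Retinoic acid, a vitamin A derivative, is known to act upstream of HOX genes, and genes of its metabolism were therefore inspected, again after values had been seen. Of 14 measured, 4 were called higher and 0 lower, and without XRN1-null replicate 1, 2 were higher. ALDH1A2, which makes retinoic acid from retinaldehyde, rose from 38.0 and 41.1 to 147 and 146 CPM (log2 1.88 ± 0.15, FDR 3.33e-05). RDH10, which supplies the retinaldehyde, rose from 59.9 and 63.9 to 105 and 111 CPM (0.79 ± 0.14, FDR 0.00526). CYP26A1, which breaks retinoic acid down, was at 1.18 (FDR 0.0132) and the receptor RARB at 0.82 (FDR 0.0357). The receptor RARA was at −0.42 (FDR 0.2). In the full comparison the raised members were 28.6% of the list, beside 7.07% of all genes. Whether retinoic acid had a part in the HOX changes was not tested.

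Adhesion and guidance molecules at the cell surface held several strong rises. Among 45 integrins and adhesion molecules, 9 were higher and 3 lower, with a median of log2 0.07 that turned to −0.08 with the offsets for GC content and coding length, and 16 were higher without WT replicate 1, and 5 without XRN1-null replicate 1 and also without XRN1-null replicate 2. The protocadherins PCDH10 (157 and 162 to 566 and 584 CPM, log2 1.85 ± 0.14, FDR 3.33e-05), PCDH7 (1.12, FDR 0.00136) and PCDH9 (0.82, FDR 0.0054), which are homophilic adhesion proteins of the nervous system, all rose. NECTIN2 (−0.74, FDR 0.0172), CD151 (−0.61, FDR 0.0212) and BCAM (−0.90, FDR 0.0357) were lower. In the full comparison the shares of the adhesion list were 20% higher and 6.67% lower, beside 7.07% and 8.38% of all genes. Of 32 axon guidance genes, 2 were higher (6.25%) and 5 lower (15.6%), so the share called higher was not above that of all genes. SLIT2, a secreted repellent, rose from 477 and 453 to 1120 and 1110 CPM (1.26 ± 0.12, FDR 0.00019), so that the summed share of the list rose although its median was −0.23. EPHB2, a receptor tyrosine kinase, went the other way (26.0 and 25.3 to 10.4 and 9.99 CPM, −1.32 ± 0.20, FDR 0.00323). FGFBP1, a secreted carrier of fibroblast growth factors, had 1 and 3 counts in WT, against 32 and 27 without XRN1, a pooled ratio of 12.8 with an exact 95% interval from 4.74 to 48.5 that covers counting error only.

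Genes for dividing chromosomes were called higher more often than all genes. Of 125 genes of the mitotic spindle, kinetochore and centrosome, 28 were called higher (22.4%) and 4 lower (3.2%), beside 7.07% and 8.38% of all genes. The other 93 were not called, and the median was log2 0.25, with 96 of 125 above 0. KIF2C, a kinesin that takes microtubules apart, went from 47.9 and 78.3 to 121 and 134 CPM (0.96 ± 0.19, FDR 0.00874), and CKAP5, which speeds their growth, from 97.9 and 178 to 276 and 308 CPM (1.05 ± 0.22, FDR 0.0104). In both genes WT replicate 1 was the lowest library. CENPV (−1.15, FDR 0.00232) and CENPH (−0.58, FDR 0.0259), which act at kinetochores, were lower. Among 22 condensin and cohesin subunits, a list drawn up after the values were seen with a median coding length of 3621 nt and a median of log2 0.44 (0.29 with the offsets for GC content and coding length), 10 were higher and 1, NCAPH2, lower (−0.45, FDR 0.044), and 6 and 7 were higher without XRN1-null replicate 1 or 2 and 18 without WT replicate 2. SMC4 rose from 189 and 325 to 598 and 666 CPM (1.28 ± 0.21, FDR 0.00368), with SMC2 at 1.00 and NCAPG at 0.99. DNA replication genes had 12 of 61 higher, or 4 and 3 without XRN1-null replicate 1 or 2 and 26 without WT replicate 2, and 5 lower, of which 4, ORC6, GINS2, GINS3 and CDT1, lie on chromosome 16. POLA1 (0.83, FDR 0.01) and CDC6 (0.73, FDR 0.0107) were among the raised. In the full comparison the shares of replication genes were 19.7% higher and 8.2% lower, beside 7.07% and 8.38% of all genes. The mitotic genes are long, with a median coding length of 2337 nt. With the offsets for GC content and coding length, 20 of 125 were higher and 4 lower, with a median of 0.09. Without WT replicate 1 or 2, 37 and 54 were higher, and without XRN1-null replicate 1 or 2, 11 and 10, with medians from 0.19 to 0.40.

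Raised footprints were also found among factors that handle RNA or chromatin. Of 47 DDX and DHX helicases, which unwind RNA, 13 were higher (27.7%) and 2 lower (4.26%), beside 7.07% and 8.38% of all genes. The median was log2 0.34, and both lowered members, DDX28 and DDX19B, lie on chromosome 16. DDX6, a cofactor of decapping and translational repression, rose from 154 and 200 to 336 and 336 CPM (0.92 ± 0.15, FDR 0.00435), and DDX3X, which aids translation initiation, from 242 and 379 to 561 and 582 CPM (0.87 ± 0.18, FDR 0.0109). The summed share of the helicases was 4830 and 6730 CPM in WT, against 7800 and 8210 in XRN1-null cells, and WT replicate 1 was again the farther of the WT libraries. Without WT replicate 1 or 2, 20 and 29 were higher, with medians of 0.22 and 0.50, and without XRN1-null replicate 1 or 2, 6 and 3 were higher, with medians of 0.39 and 0.32. The median coding length of the helicases is 2233.5 nt, and with the offsets for GC content and coding length 12 were higher and 3 lower, with a median of 0.20. Splicing factors and hnRNPs had 18 of 114 higher, or 6 and 7 without XRN1-null replicate 1 or 2 and 53 without WT replicate 2, and 3 lower, or 19 without WT replicate 1. CLK1, a kinase of splicing factors, was at 1.20 (FDR 0.00296). In the full comparison the shares of splicing factors and hnRNPs were 15.8% higher and 2.63% lower. Initiation factors had 4 of 45 higher (8.89%, beside 7.07% of all genes) and 2 lower, or 20 and 7 without WT replicate 2. EIF5B, which joins the ribosomal subunits, was at 1.29 (FDR 0.0109), with 29.7 and 73.5 CPM in WT and 123 and 147 CPM in XRN1-null cells, and EIF4A2 at 0.83 (FDR 0.00465). Chromatin modifiers, with a median coding length of 3174 nt, had 20 of 112 higher (17.9%) and 4 lower (3.57%), with CBX6 (0.78, FDR 0.00595) and CHD7 (0.83, FDR 0.0108) as examples. With the offsets for GC content and coding length, 12 were higher and 6 lower, with a median of 0.09 in place of 0.20, and without XRN1-null replicate 1 or 2, 6 and 7 were higher, and without WT replicate 2, 49. The lowered members in the full comparison were SETD1A, KAT8 and BRD7, all on chromosome 16, and DAXX on chromosome 6.

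NMD, which removes mRNAs with premature stop codons, is itself fed back on by its substrates, since mRNAs of several NMD factors are NMD targets. Of 26 NMD factors, 7 were called higher (26.9%, beside 7.07% of all genes) and 2 lower. Without WT replicate 2, 13 were higher, and 5 were higher without XRN1-null replicate 1 and also without XRN1-null replicate 2. SMG9 rose from 19.8 and 27.6 to 54.4 and 53.4 CPM (log2 1.12 ± 0.17, FDR 0.00333). UPF1, the central helicase, rose from 78.7 and 122 to 203 and 218 CPM (1.04 ± 0.19, FDR 0.00582) and UPF2 from 20.8 and 44.1 to 76.5 and 75.2 CPM (1.11 ± 0.23, FDR 0.0102), and in both WT replicate 1 was the lowest library. UPF3B (0.92), MOV10 (0.96) and SMG5 (0.62) were also among the raised. The exon junction proteins RNPS1 (−0.97, FDR 0.0026, on chromosome 16) and MAGOHB (−0.60, FDR 0.024) were lower. Of 59 mRNAs widely described as NMD targets, a list that shares members such as SMG5, SMG9, UPF1, UPF2 and UPF3B with the first, 14 were higher and 4 lower, with a median of 0.14, and 8 and 7 were higher without XRN1-null replicate 1 or 2 and 22 without WT replicate 2. Their mRNAs were called higher for 35 and lower for 6. Among 74 factors of decapping, deadenylation, the exosome and exonucleases, 7 were higher (9.46%) and 6 lower (8.11%), beside 7.07% and 8.38% of all genes, and 1 of the lowered genes was XRN1. Without chromosome 16, 7 and 3 of 68 were called, without WT replicate 2, 21 and 13 of 74, and without XRN1-null replicate 1 or 2, 2 and 1 were higher. Of 88 long non-coding RNAs and hosts of small nucleolar RNAs, 6 were higher (6.82%) and 7 lower (7.95%), which is near the 7.07% and 8.38% of all genes. SNHG1 (1.04, FDR 0.00599) and GAS5 (0.75, FDR 0.0114), which carry short reading frames and are known NMD substrates, were among the raised.

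Double-stranded RNA sensing and interferon genes had 13 of 51 members called higher and 2 lower, with a median of log2 0.20, and 8 and 7 were higher without XRN1-null replicate 1 or 2. IFIH1 (MDA5), a cytoplasmic sensor of long double-stranded RNA, rose from 2.08 and 3.45 to 18.1 and 16.9 CPM (2.53 ± 0.30, FDR 0.00114). STAT2 and JAK1, which relay interferon signals, were called higher at 0.54 and 0.57. IFI35 (1.71, FDR 0.00595) and IFI30 (0.95, FDR 0.00346) were also raised. ISG15, a ubiquitin-like modifier, had 1 and 2 counts in WT, against 27 and 14 without XRN1, a pooled ratio of 11.9 (exact 95% interval 3.78 to 59.9). PSMB9, an immunoproteasome subunit, had 2 and 1 against 21 and 18 counts (ratio 11.3, interval 3.59 to 57). BST2 (tetherin), which holds budding viruses at the membrane, fell from 27.6 and 21.4 to 7.45 and 6.87 CPM (−1.71 ± 0.24, FDR 0.00232), and HLA-F was at −0.60 (FDR 0.0229). The summed share of the list overlapped between genotypes, at 3870 and 3510 CPM in WT, against 3870 and 3790 in XRN1-null cells. No member lies on chromosome 16, and with the offsets for GC content and coding length 16 were higher and 3 lower. In the full comparison the shares were 25.5% higher and 3.92% lower, beside 7.07% and 8.38% of all genes.

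By number of footprints, HSPA1B rose most among genes called at an FDR below 0.05. HSPA1B, an inducible HSP70 chaperone, rose from 2240 and 2970 to 4310 and 4740 CPM (log2 0.79 ± 0.14, FDR 0.00523), a value that is uncertain because its copy HSPA1A is nearly identical. CLTC, clathrin heavy chain, went from 433 and 824 to 1160 and 1340 CPM (0.99 ± 0.23, FDR 0.0157) and the nucleolar protein NCL from 517 and 923 to 1140 and 1310 CPM (0.76 ± 0.21, FDR 0.0327). In these genes too WT replicate 1 was the lowest library. CA2, carbonic anhydrase, was close in both WT libraries at 787 and 780 CPM and rose to 1240 and 1300 CPM (0.70 ± 0.12, FDR 0.00475). MIF, a cytokine, went down from 2370 and 1980 to 1480 and 1440 CPM (−0.57 ± 0.13, FDR 0.0134).

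A further raised group was formed by the NBPF genes, a primate-expanded family on chromosome 1 whose function is poorly known. All 10 measured copies were called higher at an FDR below 0.005, with log2 changes from 1.36 (NBPF3) to 2.24 (NBPF9) and a median of 2.10. The family was singled out because several of its members were among the 15 largest rises. NBPF20 went from 202 and 145 to 733 and 860 CPM (2.21 ± 0.17, FDR 3.33e-05). The copies share most of their sequence, so their values are not independent and the split of reads among them is uncertain. Other families of recent duplications were mixed, with AGAP4 to AGAP7P, LRRC37A, LRRC37A2, LRRC37B and NPIPB3 to NPIPB5 among the raised, and NOMO1, NOMO2 and NOMO3 on chromosome 16 among the lowered. Of these 17 genes, 10 were higher and 3 lower, or 3 and 0 without XRN1-null replicate 1 and also without XRN1-null replicate 2.

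Most called footprint changes went with an mRNA change of the same sign, in 97.8% of the raised and 94.9% of the lowered genes at an FDR below 0.05. The exceptions called the opposite way in mRNA at an FDR below 0.005 numbered 3 among raised and 11 among lowered genes. YBX1, a cold-shock mRNA-binding protein, had 502 and 648 CPM in WT and 891 and 841 CPM in XRN1-null footprints (log2 0.59, FDR 0.02), with an mRNA change of −0.59. NANOS1 (1.89, FDR 0.0213) and PLEKHA1 (1.23, FDR 0.0246) were the other raised exceptions, and in both XRN1-null replicate 1 was well above the other libraries, at 146 beside 43.4 CPM and 180 beside 75.9 CPM. Among the lowered exceptions were XRN1, DMPK (−1.08 beside 0.93 in mRNA), ATXN1 (−0.99 beside 0.50) and WDR62 (−0.53 beside 1.30). Of the genes called lower at an FDR below 0.005, 12 had no mRNA call at that threshold. TTC26, an intraflagellar transport protein, went from 460 and 213 to 87.2 and 106 CPM (−1.78 ± 0.28, FDR 0.00353), with an mRNA change of 0.11 (FDR 0.46). The genes in this paragraph other than XRN1, YBX1 and TTC26 were chosen after their values were seen. The difference between a gene's footprint and mRNA change was not tested here.

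**Figure D5:**
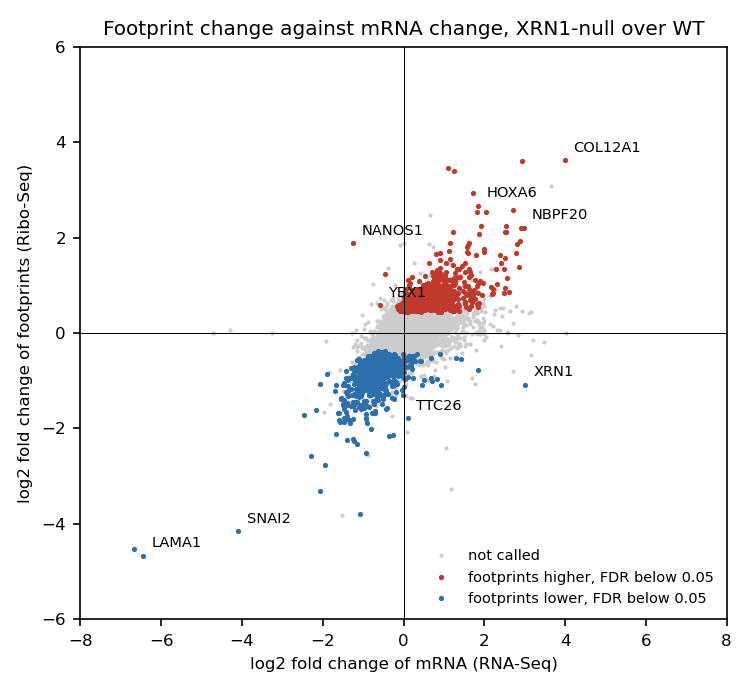
Log2 fold change of footprints (y axis) against that of mRNA (x axis), XRN1-null over WT, for 10105 genes, with genes whose footprints were called at an FDR below 0.05 in red (higher, 714) or blue (lower, 847). Most called genes lie in the quadrants where both changes share a sign, and XRN1 lies at −1.08 in footprints and 3.01 in mRNA.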

How the data were processed

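Ribo-Seq and RNA-Seq were each performed on 2 biological replicates per genotype of HEK293T cells. The authors removed rRNA reads with Bowtie2, mapped the rest to hg19 with TopHat2, counted reads per gene and kept genes above an FPKM limit, and deposited the raw counts of 10105 genes. Whether counting used strand is not given in the sources used here. The 4 Ribo-Seq libraries were fitted on their own in edgeR 4.0.16 (R 4.3.3, limma 3.58.1), with TMM factors, genotype as the only term and the quasi-likelihood test, two-sided, with Benjamini-Hochberg adjustment over all genes. The RNA-Seq libraries were fitted in the same way. With 2 libraries a genotype, p-values measure the spread between those libraries, and summed shares carry no test, since an exact permutation test could not go below 0.333.

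On simulated counts for this contrast over 10105 genes, the fit recovered 85% of genes changed by a log2 fold of 1 and 100% of those changed by 2 at an FDR below 0.005, with 1 false call. At an FDR below 0.05 these were 93% and 100%, with 7 false calls. The simulation gave every gene the same spread, changed only genes of higher counts and held no shift in length or GC content between libraries. It therefore does not give the error rate of the real comparison.

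The members and the functional lists were chosen with earlier results of these data known. Gene names were chosen by rule: XRN1, the 15 largest rises and 15 largest falls in log2 at an FDR below 0.005, the 10 largest rises and 10 largest falls in mean CPM at an FDR below 0.05, and up to 4 members with the smallest FDR in each list and direction. Of 162 genes named, 112 met the rule, and 50 were named outside it after their values were seen, to complete families or pathways. Genes with at most 3 counts in every library of a genotype are given as pooled ratios with exact 95% intervals, which cover counting error only. Positions are from GRCh37 gene models by symbol. Of the named genes, 96 overlap another annotated gene, 83 of them on the opposite and 32 on the same strand, and reads of such pairs may not be separated. Alternatives were other scaling factors, tests (DESeq2 1.42.0 among them), filters, thinning, a gene-width offset, a replicate term and leaving out each library. Leaving out chromosome 16 and an offset on GC content and coding length were added after seeing the data. Results for some genes are not reported here.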

Additional observations from a re-analysis of the deposited data

How the results depend on the processing

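XRN1 footprints stayed lower and below an FDR of 0.05 under each alternative run, from log2 −0.72 without WT replicate 2 to −1.45 with the offset on GC content and coding length. The number of called genes depended on the settings, and the cause was not tested. At an FDR below 0.005, 64 genes were called higher and 115 lower. These became 469 and 596 with the likelihood ratio test, 475 and 587 with the exact test of edgeR, 171 and 174 after thinning to the lowest total, and 161 and 194 with the offset on GC content and coding length, an alternative chosen after seeing the data. Library totals alone gave 133 higher, TMM over all 8 libraries gave 175 lower, and leaving out chromosome 16, also chosen after seeing the data, gave 57 lower. At an FDR below 0.05, 714 higher and 847 lower genes became 283 and 362 with DESeq2 and 111 and 201 with a minimum absolute log2 fold change of 1, and the likelihood ratio and exact tests gave 1127 and 1129 higher.

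Leaving out a library moved the calls at an FDR below 0.005 between 71 and 1282 higher and between 72 and 1087 lower, and at 0.05 between 275 and 1979 higher and between 281 and 1803 lower. The largest numbers came without WT replicate 2 and the next without WT replicate 1 (588 and 707 at 0.005, 1204 and 1275 at 0.05), when the lone WT library is assumed to vary like the XRN1-null pair. The same replicate numbers did not mark shared batches in the labels, and deviations of same-numbered libraries had a correlation of 0.0803. With a replicate block, 616 genes were higher and 665 lower at an FDR below 0.005, and 1239 and 1260 at 0.05.

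Among list medians of at least 0.1 in size, that of TGF-beta, BMP and activin genes turned to 0.02 without WT replicate 1, in a range from −0.16 to 0.02 over the libraries left out. With the offset on GC content and coding length, nuclear pore genes turned to −0.06, and mitochondrial ribosomal proteins and oxidative phosphorylation subunits to 0.04. Another 9 medians, each under 0.1 in size, also changed sign under that offset, among them integrins and cell adhesion molecules (−0.08), aminoacyl-tRNA synthetases (−0.04) and ZNF genes (−0.03). MIF turned to 0.13 under that offset. ASNS, not called, was at −0.14 without WT replicate 1, 0.36 without WT replicate 2 and −0.09 with that offset. ATF4, not called, was at 0.00 with library totals, 0.08 with the gene-width offset, 0.04 without WT replicate 1, 0.05 without XRN1-null replicate 2, −0.08 without XRN1-null replicate 1, and 0.10 with the offset on GC content and coding length. The shallowest library, WT replicate 1 with 1921641 counts, limits the precision for genes of low counts.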

Other observations

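HBQ1, a globin gene on chromosome 16, had 25 counts over both WT libraries and 1 over both XRN1-null libraries, a ratio of 28.8 with an exact 95% interval from 4.72 to 1180 that covers counting error only.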
